A study of Mus musculus with 46 samples.

Results

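The acute phase proteins studied here are 10 proteins that the liver secretes in larger amounts during inflammation: the serum amyloid A proteins Saa1, Saa2 and Saa3, the iron-siderophore binder lipocalin 2 (Lcn2), orosomucoid 2 (Orm2), the protease inhibitor Serpina3n, haptoglobin (Hp), hemopexin (Hpx), the fibrinogen beta chain (Fgb) and the inter-alpha-trypsin inhibitor heavy chain Itih4. They were chosen by name, with earlier results of these data known, and followed through 1 course of liver injury. All 10 were read, of 18193 genes on the arrays, and all 10 were among the 13239 genes that passed a filter on dim values. The arrays came from livers of male C57BL/6N mice, 8 to 10 weeks old, given 1 intraperitoneal injection of carbon tetrachloride (CCl4, 1.6 g/kg in olive oil), a solvent that hepatocytes around the central vein turn into a toxic radical. Livers taken at 2 h and 8 h and at 1 d, then at 2 d and 4 d, and later at 6 d and 8 d gave 5 arrays each, those taken at 16 d gave 6, and livers of untreated mice (control) gave 5. The controls received no injection, so an effect of the oil or of handling cannot be told apart from that of CCl4. The treatment field of the labels reads CCl4 for the control arrays too, and the series' design text, which calls them untreated, was followed.

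The acute phase response is the change in hepatocyte secretion that follows injury or infection. Interleukin 6 and its relatives, acting through the shared receptor chain gp130 (Il6st) and the transcription factor Stat3, and interleukin 1 and tumour necrosis factor, acting through NF-kB and C/EBP factors, raise the transcription of its genes. Serum amyloid A is among the most strongly induced of these proteins in mice, whereas haptoglobin, hemopexin and fibrinogen are already abundant in healthy blood.

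The values are log2 expression values from Affymetrix Mouse Genome 430 2.0 arrays, which the authors deposited after RMA normalization. Array medians ran between 5.48 and 5.63, and the highest value on any array was 14.9. The number of arrays limits the precision: the median standard error (SE) of a log2 fold change over all genes was 0.0966 for 8 h against control. The labels do not say that arrays of a group came from separate animals, so the p-values cover array-to-array spread, part of which may be technical. In whole liver, fewer cells of a type and less RNA per cell cannot be told apart. Of 12 hepatocyte markers, 10 were read, and their summed linear values lay at 96242 to 118651 on the 1 d arrays and at 118820 to 131361 on the control arrays. The member Fgb is one of these markers, so the sum is not independent of the members. A gene was called where limma's adjusted p was under 0.05.

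The probe sets decide how far the serum amyloid genes can be separated. In GRCm38.p6, Saa3, Saa1 and Saa2 are neighbours on chromosome 7, at 46711998 to 46719615, 46740497 to 46743181 and 46751833 to 46754313. Saa2 was read by 1 probe set of a type (_x_at) that can bind transcripts of related genes, so its values are uncertain. Saa1 was read by a probe set without that mark, and a second Saa1 probe set (_s_at) was designed from a transcript that RefSeq assigns to Saa2. RefSeq also lists Saa2 as a synonym of Saa1 and Saa1 as a synonym of Saa2, so the names follow its current symbols and may be exchanged in other sources. The promoters of Saa1 and Saa2, from 250 bases before the transcript start to 50 after it, were 95.3% identical, with 287 identical and 12 mismatched positions and 2 gaps. Saa1 and Saa3 were 50.9% identical in the same window. The promoters of the 5 genes called higher at 8 h, and that of Fgb, which was called at no time, are given from RefSeq (GRCm38.p6), 5′ to 3′ along the gene's strand, with capitals for matches to 3 motifs on either strand.
Saa1, chr7:46742931-46743230, minus strand: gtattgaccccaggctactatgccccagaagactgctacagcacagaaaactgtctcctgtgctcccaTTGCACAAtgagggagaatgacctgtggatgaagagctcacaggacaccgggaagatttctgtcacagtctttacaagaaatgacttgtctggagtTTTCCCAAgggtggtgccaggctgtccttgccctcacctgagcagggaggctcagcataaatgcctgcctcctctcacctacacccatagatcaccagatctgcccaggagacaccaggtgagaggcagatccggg
Saa2, chr7:46751583-46751882, plus strand: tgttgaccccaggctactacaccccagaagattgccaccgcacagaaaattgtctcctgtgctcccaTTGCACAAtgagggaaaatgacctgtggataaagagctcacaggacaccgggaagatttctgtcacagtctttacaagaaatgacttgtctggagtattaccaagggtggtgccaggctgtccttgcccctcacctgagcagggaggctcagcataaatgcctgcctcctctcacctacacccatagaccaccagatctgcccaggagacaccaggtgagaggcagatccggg
Lcn2, chr2:32387690-32387989, minus strand: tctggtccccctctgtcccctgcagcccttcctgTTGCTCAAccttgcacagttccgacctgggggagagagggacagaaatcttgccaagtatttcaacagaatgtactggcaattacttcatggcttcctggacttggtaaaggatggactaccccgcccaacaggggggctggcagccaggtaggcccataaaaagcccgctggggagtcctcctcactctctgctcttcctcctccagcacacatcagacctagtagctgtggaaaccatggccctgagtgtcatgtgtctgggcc
Orm2, chr4:63362199-63362498, plus strand: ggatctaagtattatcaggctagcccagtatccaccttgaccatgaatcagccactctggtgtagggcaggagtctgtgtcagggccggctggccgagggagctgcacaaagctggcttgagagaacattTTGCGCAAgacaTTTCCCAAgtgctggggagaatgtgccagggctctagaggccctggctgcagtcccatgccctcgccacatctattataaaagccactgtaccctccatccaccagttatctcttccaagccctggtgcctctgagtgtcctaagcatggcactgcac
Serpina3n, chr12:104406458-104406757, plus strand: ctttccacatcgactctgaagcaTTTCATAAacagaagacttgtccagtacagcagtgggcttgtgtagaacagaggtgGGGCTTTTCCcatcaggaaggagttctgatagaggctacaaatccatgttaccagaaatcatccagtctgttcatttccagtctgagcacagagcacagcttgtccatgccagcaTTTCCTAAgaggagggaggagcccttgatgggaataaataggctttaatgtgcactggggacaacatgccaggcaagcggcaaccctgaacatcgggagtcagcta
Fgb, chr3:83049814-83050113, minus strand: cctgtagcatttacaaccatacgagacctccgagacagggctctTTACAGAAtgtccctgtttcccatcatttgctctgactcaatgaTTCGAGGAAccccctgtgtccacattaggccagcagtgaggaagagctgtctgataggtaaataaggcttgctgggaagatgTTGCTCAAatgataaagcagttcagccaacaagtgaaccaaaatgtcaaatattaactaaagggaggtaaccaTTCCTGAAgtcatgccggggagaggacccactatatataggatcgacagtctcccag
The C/EBP motif, searched as TTNCNNAA, matched in 8 of the 9 members with a promoter in the table (Hp was the tenth member), against 40.7% of 32851 promoters of the same length. The STAT motif, TTCNNNGAA, matched in 2 of 9, Fgb and Itih4, against 8.3% of all. The NF-kB motif, 3 G, 2 bases of any kind, 3 T and 2 C, matched in Serpina3n alone among the 9, against 1.63% of all. No matches of different motifs overlapped in the printed windows. A match describes letters in this window and not a bound site.

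Against control, 1 of the 10 genes was called higher at 2 h, where 6.41% of all tested genes were. At 8 h it was 5 of 10, against 17.7% of all genes. At 1 d it was 9 of 10, against 25% of all, and at 2 d again 9 of 10, against 21.1%. At 4 d it was 1 of 10, against 4.74%. No member was called at 6 d, 8 d or 16 d, where 0.0227%, 0.068% and 0.415% of all genes were called higher and where no member had an unadjusted p under 0.05. None was called lower at any time, while 19.9%, 24.2% and 25.1% of all genes were called lower at 2 h, 8 h and 1 d. The median log2 fold change of the 10 was 1.40 at 8 h and 1.82 at 1 d, beside medians of -0.0442 and -0.0377 over all tested genes.

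**Figure D1:**
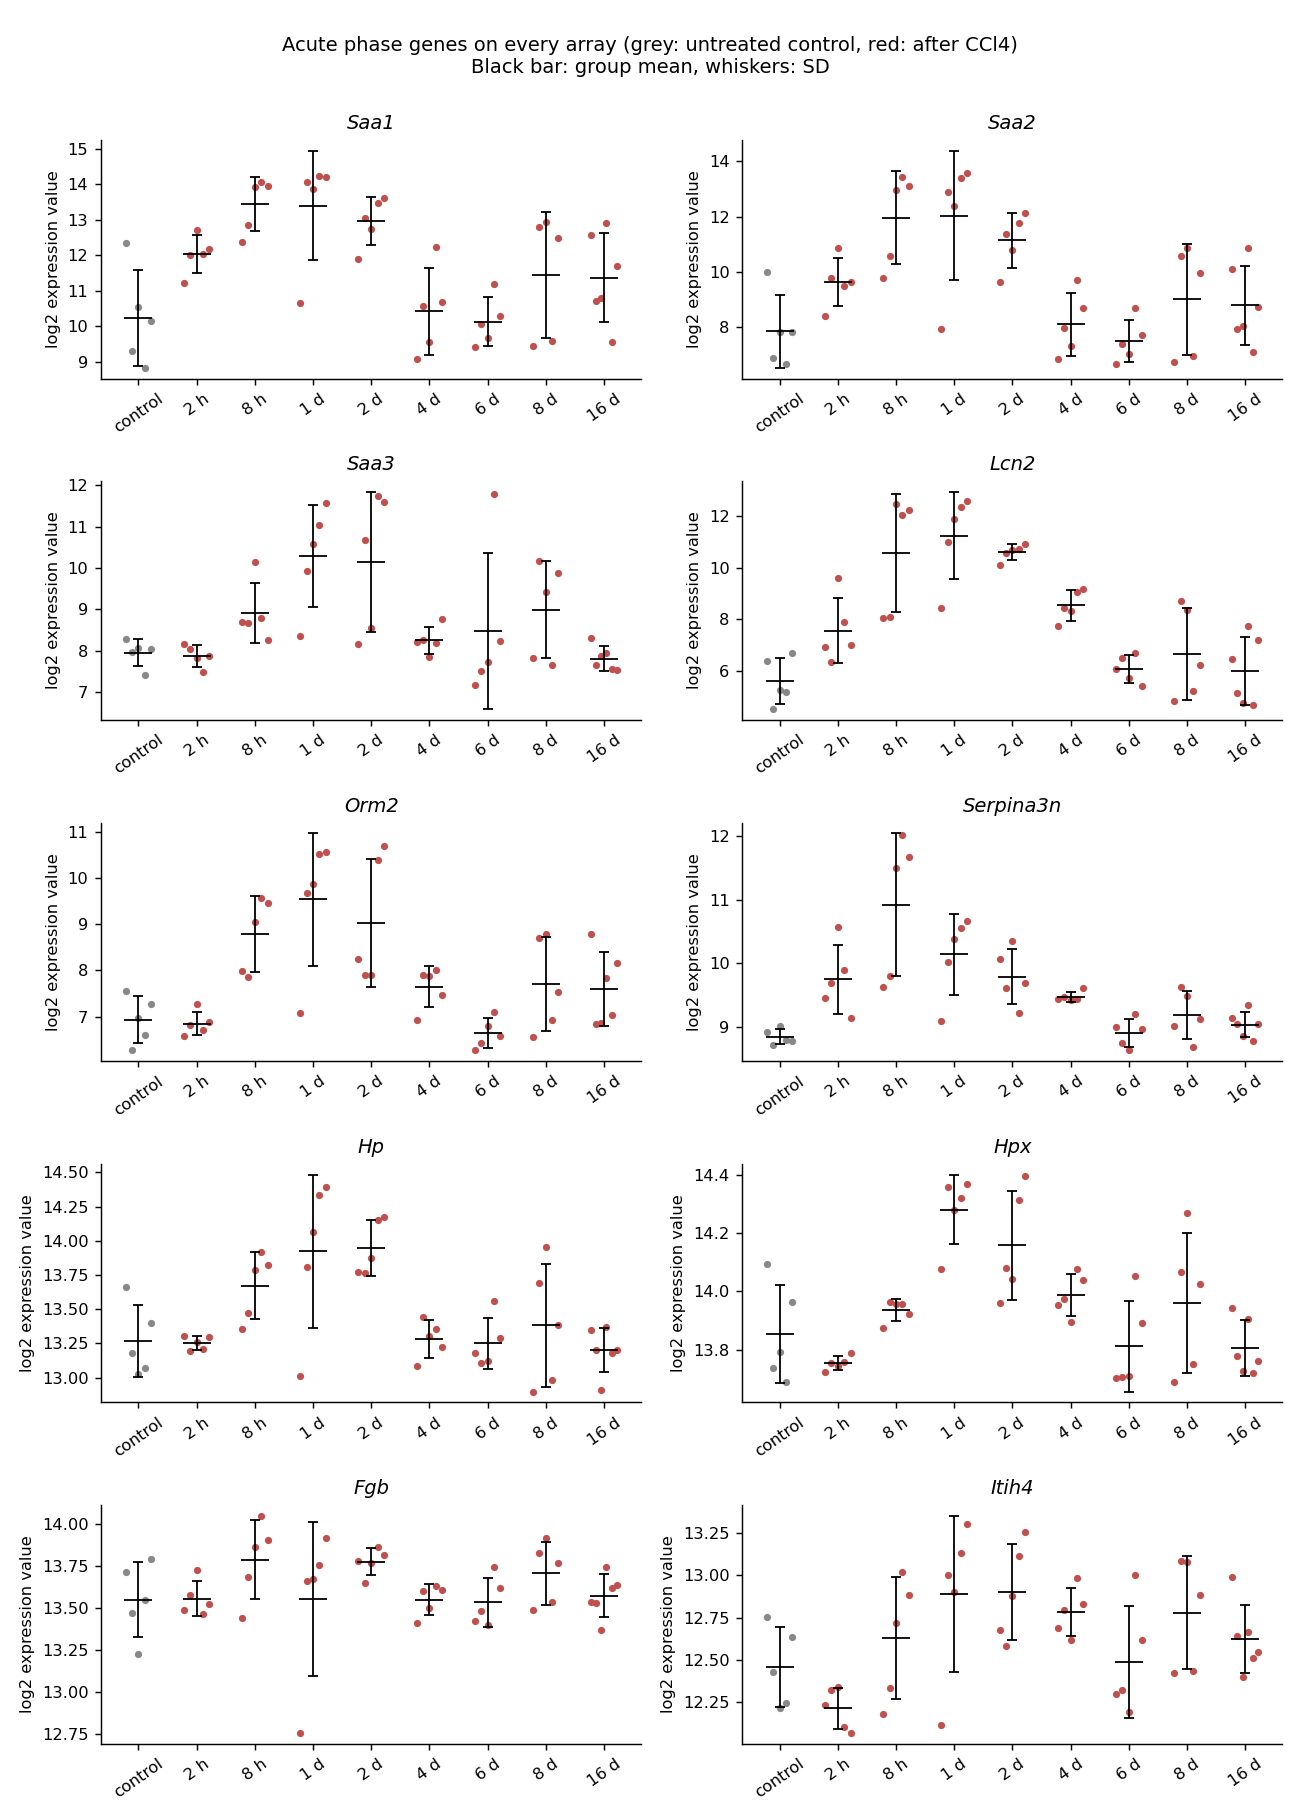
Log2 expression values of the 10 genes (vertical axes, each with its own range) on every array, by time after CCl4 (horizontal axes); points are arrays, bars are group means and whiskers are SD. Lcn2 on all 5 arrays at 8 h, 1 d, 2 d and 4 d lay above all 5 control arrays, and 1 array at 1 d lay lowest in its group for all 10 genes.

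Lcn2, which withholds iron from bacteria by binding their siderophores, had the largest log2 fold change of the 10 at 8 h, 1 d and 2 d. At 2 h its arrays held 6.94, 6.36, 9.61, 7.89 and 7.00. At 8 h they held 8.06, 8.07, 12.47, 12.06 and 12.26, and at 1 d 8.43, 11.01, 11.88, 12.35 and 12.59, against 6.39, 4.51, 5.25, 5.19 and 6.68 on the control arrays. Every array at 8 h and at 1 d lay above every control array, but 2 arrays at 8 h and 1 at 1 d were far below the other arrays of their time. The log2 fold change was 4.98 ± 0.80 at 8 h (SE, limma adjusted p = 1.78e-06) and 5.65 ± 0.80 at 1 d (adjusted p = 1.46e-07), which is 31.5-fold and 50.1-fold. At 2 d the 5 arrays held 10.11, 10.58, 10.68, 10.75 and 10.93, and at 4 d 7.72, 8.44, 8.31, 9.05 and 9.18. The 2 d arrays were close together and above all 4 d arrays, which were in turn above all control arrays. Lcn2 was the one member called at 4 d, with a log2 fold change of 2.94 ± 0.80 (adjusted p = 0.0157), but the adjusted p was 0.0526 without control array 2 and 0.0967 with a Gapdh 3′ minus 5′ covariate. At 6 d Lcn2 lay between 5.42 and 6.70 and overlapped control.

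Saa1, a lipoprotein-bound acute phase reactant, had 11.21, 12.02, 12.72, 12.03 and 12.17 at 2 h. It had 12.38, 12.86, 13.92, 14.07 and 13.95 at 8 h and 10.66, 14.05, 13.86, 14.24 and 14.20 at 1 d, against 12.34, 9.29, 10.55, 8.83 and 10.14 in control. The control arrays were themselves spread wide, with array 1 within the range of the 2 h arrays. The SD of Saa1 in control, 1.36, was larger than that of 99.9% of tested genes. The log2 fold change was 3.21 ± 0.70 at 8 h (adjusted p = 0.000201), 3.17 ± 0.70 at 1 d (0.000216) and 2.72 ± 0.70 at 2 d (0.0019). At 2 h it was 1.80 ± 0.70 and did not pass (adjusted p = 0.051), and without control array 1 it was 2.33 and passed (adjusted p = 0.0139). The second Saa1 probe set gave 3.50 ± 0.74 at 8 h and 3.47 ± 0.74 at 1 d.

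Saa2, the close relative of Saa1, had 9.77, 10.56, 12.95, 13.44 and 13.09 at 8 h and 7.95, 12.90, 12.39, 13.40 and 13.56 at 1 d, against 9.99, 6.90, 7.83, 6.69 and 7.84 in control. As for Saa1, control array 1 was the highest of its group and array 1 at 1 d lay within the control range. The log2 fold change was 4.11 ± 0.88 at 8 h (adjusted p = 0.000154) and 4.19 ± 0.88 at 1 d (0.000112). The group means of Saa1 and Saa2 had a Pearson r of 0.991 over the 9 groups, which share the arrays and, as said, possibly the transcripts.

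Saa3, the serum amyloid that macrophages and other cells outside the hepatocyte also make, had 8.70, 8.68, 10.15, 8.81 and 8.26 at 8 h and 8.36, 9.92, 10.57, 11.03 and 11.57 at 1 d, against 8.29, 7.97, 8.08, 7.42 and 8.04 in control. At 8 h 1 array stood above the rest and 1 lay within the control range, and at 1 d all 5 were above control. The log2 fold change was 0.96 ± 0.63 at 8 h (adjusted p = 0.23, and 0.0126 with only both groups in the fit) and 2.33 ± 0.63 at 1 d (0.00193). At 2 d the arrays held 8.17, 10.68, 8.55, 11.74 and 11.58, so that arrays 1 and 3 were near control and the other 3 were not. The change at 2 d was 2.19 ± 0.63 (adjusted p = 0.00494). Whether Saa3 differed from Saa1 in its timing was not tested.

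Serpina3n, an inhibitor of serine proteases, was the member called at 2 h. Its arrays held 9.46, 9.69, 10.57, 9.89 and 9.13 at 2 h, and 9.63, 9.80, 11.49, 12.02 and 11.66 at 8 h. At 1 d they held 9.09, 10.03, 10.38, 10.55 and 10.67, against 8.92, 8.72, 9.02, 8.80 and 8.79 in control. All arrays at 2 h, 8 h, 1 d and also 2 d and 4 d lay above all control arrays, which were close together. The log2 fold change was 0.90 ± 0.30 at 2 h (adjusted p = 0.0244), 2.08 ± 0.30 at 8 h (3.14e-07), 1.30 ± 0.30 at 1 d (0.000462) and 0.94 ± 0.30 at 2 d (0.0125). The call at 2 h ended without 2 h array 3 (adjusted p = 0.104) or 2 h array 4 (0.0548), and with the Gapdh covariate (0.186). With that covariate the call at 2 d ended too (0.80, adjusted p = 0.0646).

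Orm2, a lipocalin that carries basic drugs in plasma, had 7.98, 7.85, 9.06, 9.57 and 9.46 at 8 h and 7.08, 9.67, 9.86, 10.51 and 10.56 at 1 d, against 7.54, 6.27, 6.98, 6.60 and 7.28 in control. All 8 h arrays were above control, and at 1 d array 1 fell back among the control values. The log2 fold change was 1.85 ± 0.52 at 8 h (adjusted p = 0.00348), 2.60 ± 0.52 at 1 d (6.11e-05) and 2.09 ± 0.52 at 2 d (0.00146). At 2 d 3 arrays lay at 7.91 to 8.25 and arrays 4 and 5 at 10.38 and 10.68.

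The haem-scavenging pair, Hp for haemoglobin and Hpx for free haem, rose less on the log2 scale and from values near the top of the scale. Hp had 13.01, 13.81, 14.06, 14.34 and 14.39 at 1 d, against 13.66, 13.18, 13.03, 13.07 and 13.40 in control. At 1 d 4 arrays were above all control arrays and array 1 was below them all. Its log2 fold change was 0.66 ± 0.18 at 1 d (adjusted p = 0.00185) and 0.68 ± 0.18 at 2 d (0.00196), and at 8 h it was 0.41 ± 0.18 (0.059). Hpx had 14.08, 14.36, 14.28, 14.32 and 14.37 at 1 d, against 14.09, 13.74, 13.79, 13.69 and 13.96 in control. At 1 d 4 arrays of Hpx were above all control arrays and array 1 was just below the highest of them. Its log2 fold change was 0.43 ± 0.09 at 1 d (adjusted p = 9.53e-05) and 0.30 ± 0.09 at 2 d (0.00558), and the call at 2 d ended with cyclic loess (0.19, adjusted p = 0.148).

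Itih4 had 12.11, 13.00, 12.90, 13.13 and 13.31 at 1 d, against 12.76, 12.43, 12.21, 12.24 and 12.64 in control, with array 1 below all control arrays and the other 4 above them. Its log2 fold change was 0.44 ± 0.18 at 1 d (adjusted p = 0.0381) and 0.45 ± 0.18 at 2 d (0.0399). Both calls ended when any of several single arrays was left out, with adjusted p as high as 0.13 without array 5 of either time. The call at 1 d also ended with quantile normalization (0.0773), cyclic loess (0.073), only both groups in the fit (0.103) or the Gapdh covariate (0.127), and that at 2 d with cyclic loess (0.155) or the Gapdh covariate (0.106). Fgb, one of the chains of the clotting protein fibrinogen, had 13.44, 13.68, 13.87, 14.05 and 13.91 at 8 h and 12.76, 13.66, 13.67, 13.75 and 13.92 at 1 d, against 13.72, 13.47, 13.22, 13.55 and 13.79 in control. The groups overlapped, and the log2 fold change was 0.24 ± 0.13 at 8 h (adjusted p = 0.143) and 0.00 ± 0.13 at 1 d (0.987). With cyclic loess normalization Fgb (0.45), Hp (0.61) and Hpx (0.30) were called higher at 8 h, which made 8 members in place of 5. The other chains, Fga and Fgg, gave 0.19 ± 0.10 and 0.16 ± 0.11 at 8 h and were not called at 8 h or 1 d either.

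**Figure D2:**
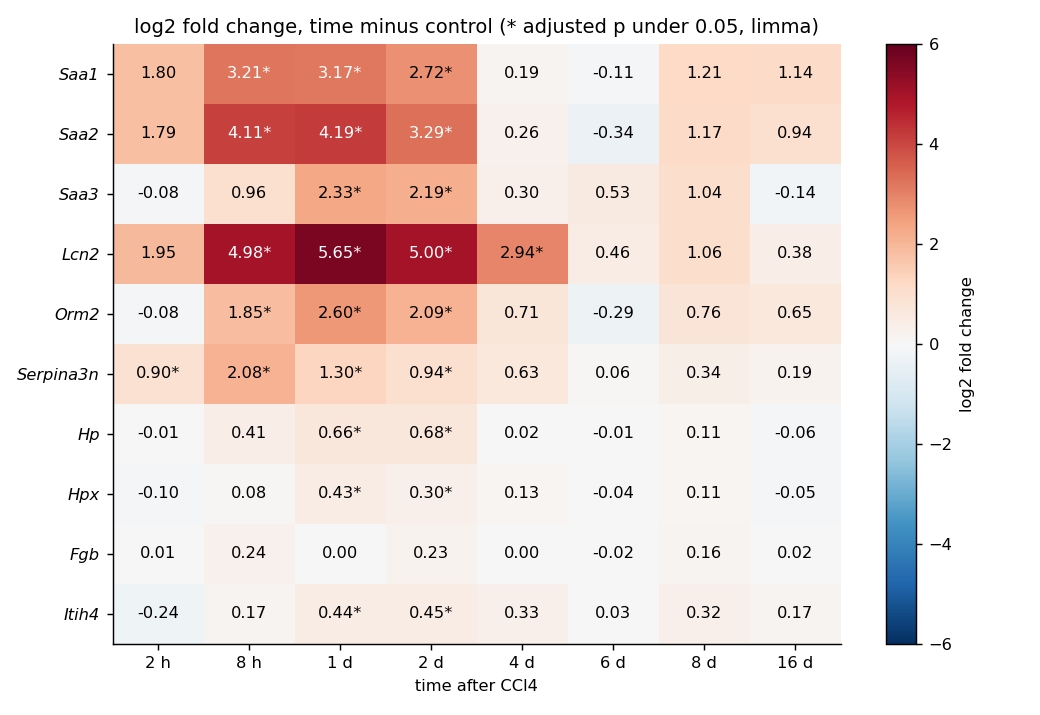
Log2 fold change of each gene (rows) at each time after CCl4 (columns) against control, with an asterisk where limma's adjusted p was under 0.05. The called changes lie between 2 h and 4 d and all are higher, and Lcn2 at 1 d has the highest value, 5.65.

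Between neighbouring times, 4 members were called higher at 8 h than at 2 h, against 20.4% of all genes: Lcn2 by 3.03 ± 0.80, Saa2 by 2.32 ± 0.88, Orm2 by 1.93 ± 0.52 and Serpina3n by 1.17 ± 0.30 on the log2 scale. The Saa2 call ended without any of 6 single arrays (adjusted p = 0.0555 to 0.0996), and that of Serpina3n with only both groups in the fit (0.054). At 1 d against 8 h Hpx was higher by 0.34 ± 0.09 (limma adjusted p = 0.00211), where 20.8% of all genes were called higher, but not with cyclic loess (0.11, adjusted p = 0.431). Serpina3n fell by 0.78 ± 0.30 at 1 d against 8 h (adjusted p = 0.0469), where 10.9% of all genes were called lower, and this call ended under no filter, shifted medians and array weights. No member was called between 2 d and 1 d, where 15% of all genes were lower. At 4 d against 2 d 6 members were called lower, against 17.9% of all genes, with Saa2 at -3.02, Saa1 at -2.54, Lcn2 at -2.07, Saa3 at -1.88, Orm2 at -1.38 and Hp at -0.66. The Lcn2 call (adjusted p = 0.0449) ended without the filter (0.0515), with cyclic loess (0.0539) or quantile normalization (0.0558), with trend and robust variance (0.0565) or without any of 8 single arrays. The Orm2 call ended in 10 settings, with adjusted p up to 0.173 without 2 d array 5, and the Saa3 call ended with array weights (0.0612) or without 2 d array 4 (0.0828) or 5 (0.079). At 6 d against 4 d Lcn2 fell by 2.47 ± 0.80 (adjusted p = 0.0382), where 7.3% of all genes were called lower, and the call ended without any of 7 single arrays (0.0575 to 0.0924).

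The highest group mean was at 8 h for 3 members (Saa1, Serpina3n and Fgb), at 1 d for 5 (Saa2, Saa3, Lcn2, Orm2 and Hpx) and at 2 d for 2 (Hp and Itih4). Without 1 d array 1 it was at 8 h for 2 (Serpina3n and Fgb) and at 1 d for 8. When the 9 groups were ordered by mean for each member, 2 of the 80 neighbouring pairs differed: Lcn2 at 8 h over 4 d (adjusted p = 0.0333) and Serpina3n at 8 h over 1 d (0.0469). All arrays lay above all control arrays for 4 of 10 members at 8 h, 3 at 1 d and 4 at 2 d, against 13.9%, 16.7% and 15.7% of all genes.

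Single arrays stood apart in many members at once. At 1 d array 1 was the lowest of its group in 10 of 10 members, and its mean correlation with the other 1 d arrays over all tested genes was 0.950. Without it the log2 fold change at 1 d was 3.86 for Saa1, 5.21 for Saa2, 6.35 for Lcn2 and 3.21 for Orm2, and 9 members stayed called. The same array had 9.69 for the lipopolysaccharide co-receptor Cd14, where the other 1 d arrays had 7.87, 9.92, 10.04 and 10.10. Its summed hepatocyte markers, 96242, were the lowest at 1 d, where the other arrays had 101591 to 118651. Whether that had a part in its member values was not tested. At 8 h arrays 1 and 2 were both below arrays 3, 4 and 5 in 8 of 10 members, the exceptions being Saa3 and Hpx. Socs3, the feedback inhibitor of Stat3 signalling, was 7.41 and 7.84 on those arrays and 8.61, 9.26 and 8.75 on the other 8 h arrays. The Gapdh 3′ minus 5′ value was also split, at 0.263 and 0.224 on arrays 1 and 2 and 0.152, 0.140 and 0.054 on arrays 3, 4 and 5. In control it was 0.275 to 0.433. The part of either in the members' values was not tested.

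At 6 d array 4 was the highest in 10 of 10 members. Its summed macrophage markers (12 genes) were 7631 and those of the other 6 d arrays 3667 to 4499. At 8 d Saa1 had 9.43, 12.81, 12.94, 9.57 and 12.48, and Lcn2 had 4.83, 8.70, 8.37, 5.20 and 6.24. Arrays 1 and 4 were the lowest pair of that time in 10 of 10 members, and their macrophage sums, 3662 and 3485, were also the lowest at 8 d. At 2 d arrays 4 and 5 were each among the 2 highest in 9 members, with macrophage sums of 11208 and 12560 where the other 2 d arrays had 4657 to 5799. Summed neutrophil markers (11 genes) were split on the same arrays. They were 875 on 6 d array 4 and 697 to 769 on the other 6 d arrays. At 8 d they were 703 and 654 on arrays 1 and 4 and 750 to 871 on the others. At 2 d they were 1026 and 1013 on arrays 4 and 5 and 720 to 816 on the others. S100a8, which is in this sum, was 8.01 and 7.95 on 2 d arrays 4 and 5 and 6.11 to 6.61 on the others. At 8 d it was 4.32 and 4.78 on arrays 1 and 4 and 5.99 to 6.71 on the others. A sum of linear values gives more weight to its brighter genes, so the split need not hold for all 11 genes. The part of either cell type in the members' values was not tested. In control, array 1 was among the 2 highest in all 10 members, and its macrophage sum, 4087, was inside the 3960 to 4517 of the group. Its neutrophil sum, 800, was the highest of the group, where the other control arrays had 717 to 750.

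**Figure D3:**
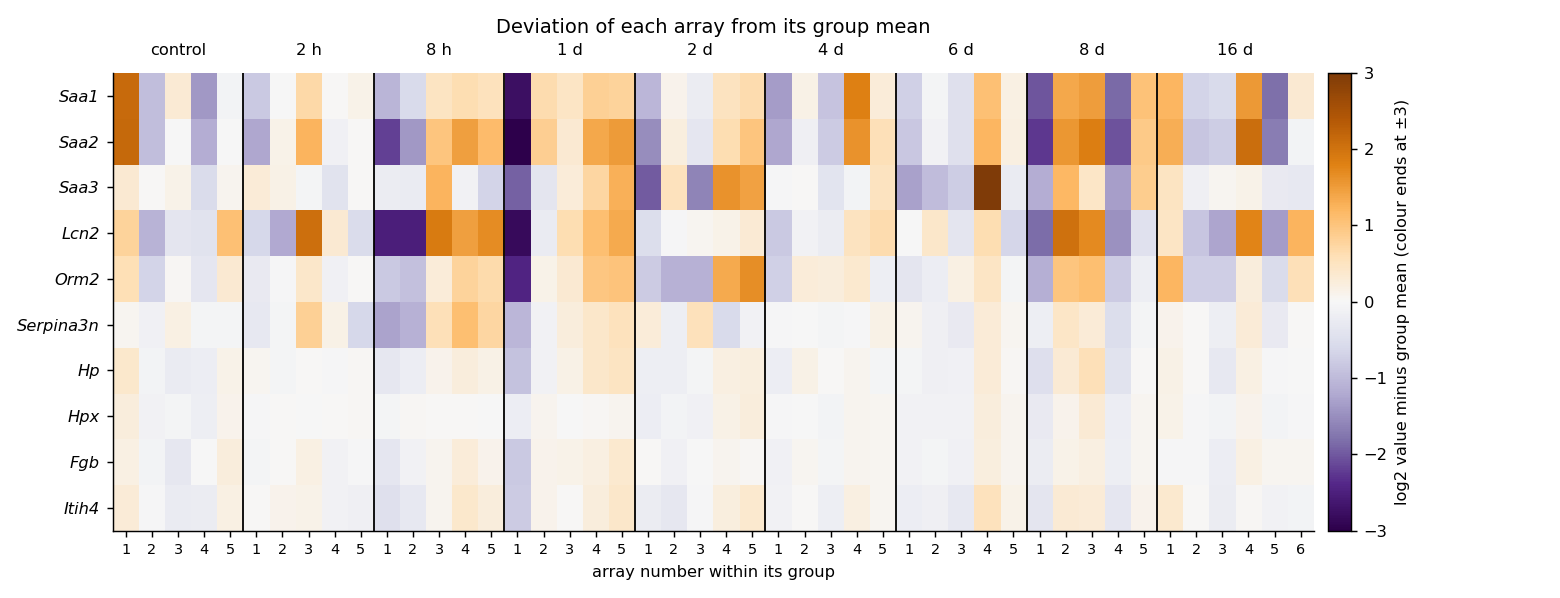
Deviation of each array (columns, numbered within its group) from its group mean for each gene (rows), on the log2 scale, with colour ending at ±3. Array 1 at 1 d is below its group mean in all 10 genes, array 4 at 6 d is above it in all 10, and arrays 1 and 4 at 8 d are below it in all 10.

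Of 27 other positive acute phase genes, 22 were read and tested. At 8 h 7 were called higher and 5 lower, where 17.7% of all genes were higher and 24.2% lower, and at 1 d 11 were higher and 4 lower, where 25% and 25.1% of all genes were. The lower calls were thus no more frequent than among all genes at these times. The 11 higher at 1 d became 5 with quantile normalization and 6 with cyclic loess, and the 7 at 8 h became 11 with cyclic loess. The median log2 fold change of the list was 0.186 at 8 h and 0.248 at 1 d. Cd14 rose by 2.72 ± 0.33 at 8 h and by 3.05 ± 0.33 at 1 d. The iron hormone hepcidin (Hamp) rose at 8 h by 1.20 ± 0.39, a call that ended without control array 3, and the glycoprotein Lrg1 by 1.15 ± 0.30. At 1 d serum amyloid P (Apcs) rose by 1.68 ± 0.22 and Fgl1, a fibrinogen-like protein, by 1.59 ± 0.25. C-reactive protein (Crp) at -0.64 ± 0.17, the immunoglobulin transporter Pigr at -0.63 ± 0.14 and the protease Ctsc at -0.66 ± 0.22 were lower at 8 h, but Ctsc was -0.24 and not called when its probe sets were averaged. At 1 d Pigr was -0.98 ± 0.14, complement C9 -0.68 ± 0.12 and Saa4, the constitutive serum amyloid, -1.24 ± 0.37. Saa4 without 1 d array 1 was -0.65 and not called.

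Negative acute phase genes, which fall in inflammation, were lower in 8 of 13 tested at 8 h and 9 of 13 at 1 d, with none higher at either time, where 24.2% and 25.1% of all genes were lower. With cyclic loess 4 were lower and 2 higher at 8 h, and with cyclic loess over single-gene probe sets 4 were lower and 6 higher at 8 h and 6 lower and 3 higher at 1 d, Ttr (0.23 at 8 h, 0.15 at 1 d) and Apoa2 (0.17 at 8 h) among those higher. The list's median log2 fold change was -0.266 at 8 h and -0.276 at 1 d. The hepatocyte markers had medians of -0.233 and -0.359, with 4 and 8 of 10 called lower, and their part in the list's values was not tested. The lists overlap, with Ttr in both, so their medians are not independent. The corticosteroid carrier Serpina6 was -2.64 ± 0.32 at 8 h and -2.73 ± 0.32 at 1 d, the IGF-binding partner Igfals -1.16 ± 0.18 and -1.14 ± 0.18, and the histidine-rich glycoprotein Hrg -0.56 ± 0.11 and -0.72 ± 0.11. Albumin (Alb), at 14.7 to 14.8 in every group mean given here, was -0.02 ± 0.04 at 8 h and 0.02 ± 0.04 at 1 d. It sits at the top of the array's scale, where a change may be compressed.

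Among the cytokines and receptors, 13 of 18 were tested, with 4 higher and 3 lower at 8 h (17.7% and 24.2% of all genes) and 6 higher and 2 lower at 1 d (25% and 25.1% of all genes). Il6 was below the filter, with group means from 3.04 to 3.27. Tnf was 0.01 ± 0.09 at 8 h, and Il1b was -0.24 ± 0.18 at 8 h and 0.28 ± 0.18 at 1 d, none of them called. The receptor for oncostatin M (Osmr) rose by 1.40 ± 0.19 at 8 h and 1.12 ± 0.19 at 1 d, and Il6st by 0.61 ± 0.10 and 0.75 ± 0.10. Il1r1, the interleukin 1 receptor, rose by 1.17 ± 0.19 and 0.74 ± 0.19. The leukaemia inhibitory factor receptor Lifr was -1.49 ± 0.24 at 8 h, the interleukin 1 co-receptor Il1rap -0.72 ± 0.09 and Il1a -0.42 ± 0.11. Probe sets of 1 gene disagreed for several of these: the 3 of Osmr ran from 0.04 to 1.40 at 8 h and the 5 of Il1rap from -0.72 to 0.12. The 2 of Il1r1 ran from -0.03 to 1.17 at 8 h, the 3 of Lifr from -1.49 to -0.12 and the 4 of Il6st from 0.13 to 0.61.

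Of the transcription factors and feedback genes, 8 of 19 tested were higher and 2 lower at 2 h, where 1 of 10 members was called, with 8 and 2 at 8 h and 12 and 3 at 1 d. Of all genes, 6.41% were higher and 19.9% lower at 2 h, 17.7% and 24.2% at 8 h, and 25% and 25.1% at 1 d. Cebpd, a C/EBP factor induced in the acute phase, was 3.00 ± 0.22 at 2 h, 1.87 ± 0.22 at 8 h and 1.11 ± 0.22 at 1 d. Cebpb was 1.96 ± 0.19 at 2 h and 1.23 ± 0.19 at 8 h, and Socs3 was 2.30 ± 0.44, 1.63 ± 0.44 and 1.62 ± 0.44 at 2 h, 8 h and 1 d. At 16 d, when no member was called, the Socs3 arrays held 8.87, 8.84, 8.14, 9.17, 6.76 and 8.38, against 6.07 to 7.14 in control. The 3 probe sets of Socs3 ran from 0.73 to 1.66 at 16 d and from 0.75 to 1.67 at 8 h. The NF-kB cofactor Nfkbiz was higher by 1.06 ± 0.28 at 1 d. Stat3 was higher by 0.46 ± 0.10 at 2 h and 0.41 ± 0.10 at 8 h. The liver factor Cebpa (C/EBP alpha) was -0.43 ± 0.16 at 8 h and -1.14 ± 0.16 at 1 d, the glucocorticoid receptor Nr3c1 -0.83 ± 0.10 and -0.60 ± 0.10, and the liver factor Hnf4a -0.61 ± 0.12 at 1 d. Socs3 was 1.02 and not called at 8 h or 1 d with the Gapdh covariate, and the 8 h call of Cebpa ended without any of 8 h arrays 3, 4 and 5 or control array 5. A second Cebpd probe set gave 0.30 at 2 h and 0.18 at 8 h, and the 6 of Nr3c1 ran from -0.83 to 0.20 at 8 h. The 4 of Stat3 ran from -0.05 to 0.65 at 2 h and from -0.07 to 0.56 at 8 h, and the 3 of Nfkbiz from 0.14 to 1.06 at 1 d.

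**Figure D4:**
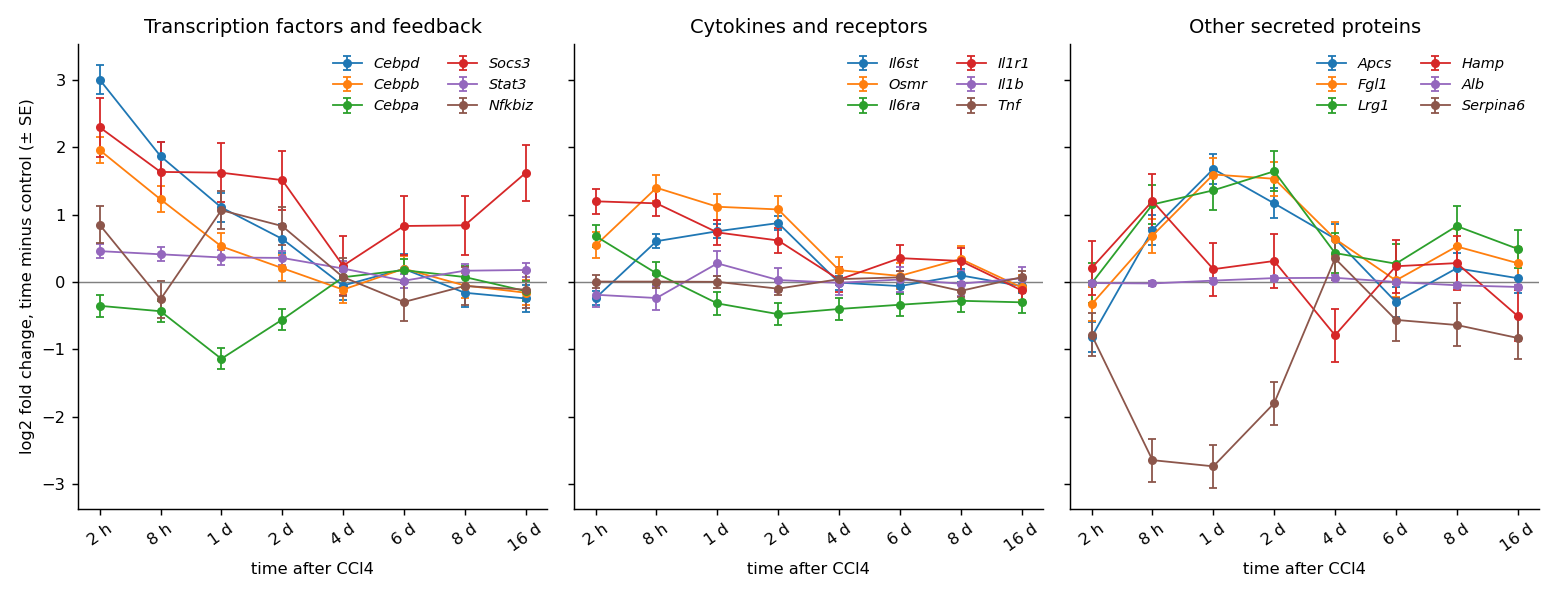
Log2 fold change against control (vertical axis, ± SE) at 8 times after CCl4 for genes of the lists around the acute phase proteins. Cebpd, Cebpb and Socs3 are highest at 2 h, Serpina6 is lowest at 1 d, and Alb, Il1b and Tnf lie near 0.

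Neutrophils carry Lcn2 in their granules, so their markers are given beside it. Of 14 neutrophil markers, 11 were read, and their summed linear values were 673 to 792 at 8 h, 779 to 1986 at 1 d and 717 to 800 in control. At 8 h, where Lcn2 was 31.5-fold higher, none of the 10 tested markers was called, and 17.7% of all genes were higher and 24.2% lower. At 1 d 2 of the 10 were called higher, S100a8 and S100a9 (3.25 ± 0.49 and 2.10 ± 0.34). The granule genes Ngp, Ltf and Mpo, 3 of the 10, were called lower, at -0.39, -0.20 and -0.33. Both counts at 1 d were near the shares of all genes, 25% higher and 25.1% lower. The part of neutrophils in the Lcn2 values was not tested. The Ltf call ended with shifted medians (0.0808), cyclic loess (0.077), the Gapdh covariate (0.111) or without 1 d array 2 (0.0524). Macrophage markers summed to 2691 to 3193 at 8 h, 4573 to 5829 at 1 d, 9065 to 11005 at 4 d and 3960 to 4517 in control. Of the 12 read, 1 was called higher and 7 lower at 8 h, where 17.7% and 24.2% of all genes were, and 8 were higher at 4 d, where 4.74% were. Adiponectin (Adipoq), a fat cell marker, was below the filter, with group means from 3.35 to 3.82.

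The tested genes outside the members were ranked by Pearson r of their 9 group means with those of each member, as a description. Clone names and Gm, Rik and LOC symbols were left out. Fgb was most like the other fibrinogen chains, Fgg (0.931) and Fga (0.908). Itih4 was most like Orm1 (0.955), a relative of Orm2. Saa1 was most like Tlnrd1 (0.974), Saa2 Gtf3c5 (0.984), Saa3 Chd4 (0.972), Lcn2 Pdlim1 (0.981) and Orm2 Ctdnep1 (0.984). Serpina3n was most like Zfp330 (0.983), Hp Cinp (0.989) and Hpx Polk (0.991). Among the members themselves, the 45 pairs had r from 0.232 (Serpina3n with Itih4) to 0.991 (Saa1 with Saa2), with a median of 0.76.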

How the data were processed

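Total RNA from liver was profiled on 46 Affymetrix arrays, labelled as biotinylated cRNA per the labels' protocols. The authors deposited log2 values, for which the submitters' processing notes name RMA and oligo 1.52.0. Of 45101 probe sets, 34945 named 1 gene, 932 several and 9160 none, beside 64 controls. A gene took its probe set with the highest mean. A gene was tested where 5 or more arrays exceeded 5.56, the median over the whole matrix. One limma 3.58.1 fit (R 4.3.3) of 9 group means had 37 residual degrees of freedom, with Benjamini-Hochberg adjustment over 13239 genes per contrast and calls at 0.05. On simulated data, 98.1% of 2-fold changes at 8 h and 100% at 1 d were recovered among 13239 genes. The changed genes were drawn at random from all tested genes, and most members vary more between arrays than most genes. Saa1, whose SD in control was larger than that of 99.9% of tested genes, was not called at 2 h with a 3.49-fold change. A member with as wide a spread that was not called may therefore have changed by 2-fold or more. Members with a small SE, such as Fgb (0.00 ± 0.13 at 1 d), were measured more closely.

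The members and lists were chosen with earlier results of these data known. Named genes are all members, the 3 strongest called rises and falls of each list at 8 h and 1 d, a fixed panel, the nearest genes by r and marker genes at their extremes. Array scaling, filters, probe set choice, the fit, array weights, a replicate block, a Gapdh covariate and leaving out each array were tried. Shifted medians, quantile and cyclic loess normalization were planned on the deposited values and run over all probe sets. They had first been run over single-gene probe sets, and that version is kept as an alternative added after its results were seen.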

Additional observations from a re-analysis of the deposited data

Results flagged for a closer look

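In 90 combinations of a member and a group, 6 had an array far from the rest of its group by Dixon's test, which chance flags in about 1 group in 20. Of these, 4 were array 1 at 1 d: Saa1 at 10.66 where the other arrays lay at 13.86 to 14.24, Saa2 at 7.95 where they lay at 12.39 to 13.56, Orm2 at 7.08 where they lay at 9.67 to 10.56, and Fgb at 12.76 where they lay at 13.66 to 13.92. Saa3 on array 4 at 6 d was 11.78, with the others at 7.18 to 8.23. Serpina3n on array 5 at 4 d was 9.62, with the others at 9.42 to 9.47, a gap that is small beside its SD at earlier times.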

How the results depend on the processing

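Over alternatives other than leaving out an array, 33 of 2250 single member values lost their call, 64 gained one and 0 reversed; leaving out 1 array, 49 of 1520 lost it, 16 gained one and 0 reversed. A further 160 of 3770 values, called neither way, changed sign. These totals count members in a comparison whether or not they were called there. Most were not called in the main fit, so a larger share of the calls was lost than the totals give. The members called higher at 2 h (1) were 2 with quantile normalization, cyclic loess (both versions of each) or a stricter filter, 4 with only both groups in the fit, 3 with array weights and 0 with the Gapdh covariate, and 0 to 2 without 1 array. At 8 h (5) they were 8 with cyclic loess over all probe sets and 9 over single-gene probe sets. At 4 d (1) they were 2 with only both groups or array weights, 0 with the Gapdh covariate and 0 to 1 without 1 array. Higher at 8 h than 2 h (4) were 7 with shifted medians and 8 with single-gene cyclic loess, only both groups or array weights. At 1 d against 8 h, members higher (1) were 0 with either cyclic loess, 5 with array weights and 1 to 5 without 1 array (5 without 1 d array 1), and members lower (1) were 2 with either cyclic loess, 0 with either shifted median, no filter, only both groups, trend and robust variance or array weights, and 0 to 1 without 1 array. Members lower at 2 d than 1 d (0) were 1 with single-gene cyclic loess and 2 with array weights; at 4 d than 2 d (6), 3 to 6 without 1 array; at 6 d than 4 d (1), 3 with only both groups, 2 with array weights, 0 with trend and robust variance or the Gapdh covariate, and 0 to 1 without 1 array. Of all genes, those higher at 2 h (848) were 1306 with single-gene cyclic loess and 525 with the Gapdh covariate, and those lower (2638) were 1362 and 1296 with cyclic loess over all and single-gene probe sets; the share of calls that were higher was 24.3% and became 37.8% with quantile normalization and 47.6% with cyclic loess, while at 2 d 52.7% became 41.6% and at 8 d 47.4% became 58.8% with quantile normalization and at 16 d 27.5% became 53.9%. At 4 d, higher (628) were 1020 with only both groups and 1206 with array weights, and lower (292) were 602, 865 and 169 to 324 without 1 array. At 6 d, higher (3) were 1 with averaged probe sets, 0 without _x_at or _s_at probe sets, 0 with only both groups, 9 with array weights and 1 to 7 without 1 array, and lower (0) were 5 and 0 to 5. At 8 d, higher (9) were 4 with only both groups, 28 with array weights and 5 to 17 without 1 array, and lower (10) were 62 with array weights and 1 to 25. At 16 d, higher (55) were 90 and 84 with quantile normalization (all and single-gene), 26 with averaged probe sets, 31 with only both groups, 271 with array weights and 4 to 86 without 1 array, and lower (145) were 250 with shifted medians, 77 and 69 with quantile, 48 and 45 with cyclic loess, 59 with averaged probe sets, 739 with array weights and 4 to 245; both lowest counts came without control array 5. The causes were not tested.

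Deviations from the group means correlated at -0.274 to 0.374 (mean 0.0153, 180 pairs) between arrays of the same number in different groups. Between arrays of different number they correlated at -0.365 to 0.376 (mean -0.00358, 760 pairs). These similar ranges show no pairing by number, but they cannot exclude one in part of the groups or genes. With the replicate number as a block, genes called at 16 d were 19 higher and 31 lower; the paired fit moved no member count by over 1.5 times.

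The number of arrays, the values near 14.9 for the most abundant genes and the _x_at probe set of Saa2 limit what can be read.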
